A study of Dermatophagoides pteronyssinus with 3 samples.

Results

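RNA of 50 to 150 bp from the house dust mite Dermatophagoides pteronyssinus is described here from 1 sequencing library, taken as every line of that library's contig table. It comprised 8604 contigs of the 47844 contigs listed for the 3 gel fractions of the series, or 17.98%. A contig is a sequence rebuilt from overlapping reads. The fractions were cut from a gel of mite RNA that the submitters call immunogenic: this one at 50 to 150 bp, one above 500 bp and one at about 300 bp, each sequenced as 1 library. The mites came from the standard culture of a commercial supplier with no treatment, the RNA was extracted with Trizol, and the libraries were made with a total RNA kit that removes ribosomal RNA (KAPA with RiboErase, designed for human, mouse and rat). These points are shared by the 3 fractions, and the labels give no mite age, sex or stage. Which species a contig comes from was not tested.

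House dust mites are arachnids whose bodies and droppings are a main source of indoor allergens, and RNA can itself be sensed by innate immune receptors. In an animal extract, RNA of this size class can include transfer RNA, the small ribosomal RNAs, small nuclear and small nucleolar RNA, and pieces broken from longer RNA. The contigs carry names and no gene names or sequences in the tables used here, so none was assigned to these classes. The shortest listed contig had 151 bases, so no listed contig lay inside the size range of the gel cut. The RNA above 500 bp also had a listed contig of 151 bases, and the sources do not state the assembler's minimum contig length. Contig length therefore cannot check the label of the fraction, and the label was not tested.

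The assembler Trinity writes names in nested parts. The name up to the _c part marks a component, a set of contigs built from connected sequence. The _g part marks a gene in the assembler's sense, and the _i part an isoform, that is, 1 contig among alternative paths through that gene. A component or a gene in this sense need not be a gene of the mite. Here 8604 contigs fell into 6304 genes and 5814 components, and 38218991 reads were placed on them. With 1 library there is no replicate error, and the values below are descriptions without a test. Counting error is small at this depth: the exact 95% interval (Clopper-Pearson) around any share of the placed reads given here reaches no further than 0.0159 percentage points. It covers nothing but counting, and PCR copies of a molecule are not told apart in these counts.

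Components were the first level examined, with the question of how much of the library a few connected sequence sets held. Most components were small and most reads lay on few of them. A single contig made up 5319 of the 5814 components, and the other 495 components held 97.3% of the reads. Components with at least 2 genes numbered 242 and held 96.0%. The 14 components with at least 1% of the reads each held 80.9% of the reads on 320 contigs, whose lengths summed to 122473 bases, or 6.05% of the assembled bases.

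The highest component, TRINITY_DN3414_c60, had 11502639 reads, which was 30.1% of the library on 0.959% of the assembled bases. Contigs of at least 1000 bases held 91.6% of its reads, and 9 of its 17 contigs were that long. TRINITY_DN3406_c24 had 4740828 reads (12.4%) and TRINITY_DN3409_c36 had 3015932 reads (7.89%). Next came 2 components with the same number before the _c part, TRINITY_DN3415_c21 with 5.82% and TRINITY_DN3415_c20 with 5.47% of the reads. The remaining 5 of the 10 highest held 4.09% in TRINITY_DN3383_c5, whose longest contig had 261 bases, down to 2.11% in TRINITY_DN3407_c7, whose longest had 301 bases. TRINITY_DN3365_c1 (2.52%) had no contig above 214 bases, whereas TRINITY_DN3373_c0 (2.39%) reached 593 bases and TRINITY_DN3366_c1 (2.23%) reached 903 bases.

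Without the highest component, 26716352 reads on 8587 contigs remained, and the reads were still held by few components. TRINITY_DN3406_c24 then held 17.7% of the remaining reads, TRINITY_DN3409_c36 held 11.3% and TRINITY_DN3415_c21 held 8.33%. The 10 highest of the remaining components held 66.7%, against 75.04% for the 10 highest of the whole library. To reach 50% of the remaining reads took 5 components, against 3 with the highest one kept, and to reach 90% took 39 against 31. To reach 99% took 132 components of 5813.

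**Figure D1:**
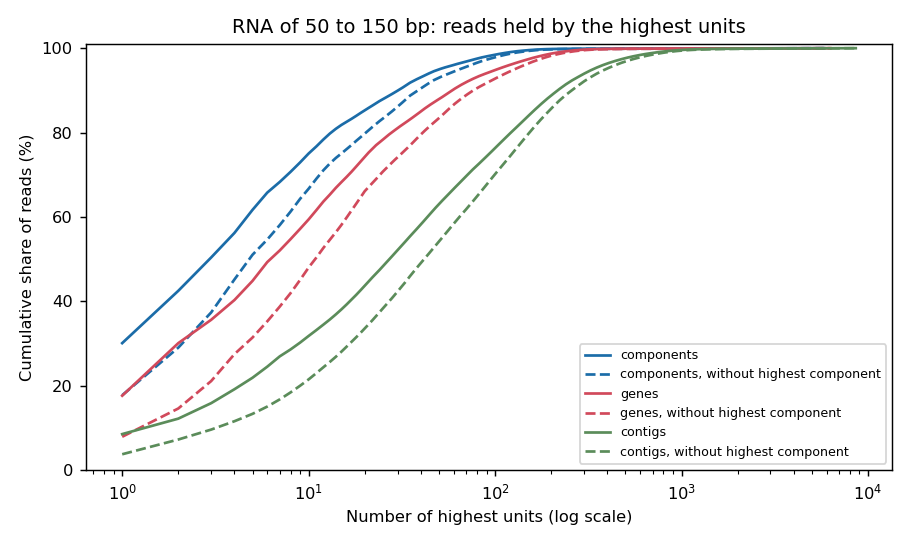
Cumulative share of reads (%) against the number of highest units (log scale) for components, genes and contigs of the 50 to 150 bp library, with all contigs (solid lines) and without the highest component (dashed lines). The solid curves reach 50% at 3 components, 7 genes and 28 contigs, and the dashed curves at 5 components, 11 genes and 42 contigs.

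The place of the highest component depended on the measure. Reads on a contig grow with its length, while mean coverage (aligned bases divided by contig length) does not. By summed coverage of its contigs, TRINITY_DN3406_c24 was highest with 9.63% of the summed coverage of the library, and TRINITY_DN3414_c60 was in place 2 with 7.51%. Summed coverage grows with the number of contigs, which was 25 in TRINITY_DN3406_c24 and 17 in TRINITY_DN3414_c60. Aligned bases over the summed contig length gave a coverage of 59303 for TRINITY_DN3414_c60 and 36780 for TRINITY_DN3406_c24, the same order as by reads. Of the 10 highest components by reads, 9 were also among the 10 highest by summed coverage. The whole number before the _c part can join several components: TRINITY_DN3414 joined 23 components with 41 contigs and held 30.6% of the reads, little more than TRINITY_DN3414_c60 alone.

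Genes were examined next, to see how the reads of a component were divided. The 2 genes with most reads were both in the highest component. TRINITY_DN3414_c60_g1 had 13 contigs of 297 to 1869 bases and 6740135 reads, 17.6% of the library and 58.6% of its component. TRINITY_DN3414_c60_g2 had 4 contigs of 180 to 3171 bases and 4762504 reads, 12.5% of the library and 41.4% of its component. By depth their order was turned: the aligned bases over the summed contig length gave a coverage of 75914 for TRINITY_DN3414_c60_g2 and 51350 for TRINITY_DN3414_c60_g1.

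Genes with at least 1% of the reads numbered 22, of which 20 lay outside the highest component, and together the 22 held 76.3% of the reads. Outside the highest component, TRINITY_DN3406_c24_g1 was first with 2112605 reads, 7.91% of the remaining reads. TRINITY_DN3406_c24_g2 followed with 6.70%, TRINITY_DN3409_c36_g3 with 6.49% and TRINITY_DN3415_c21_g2 with 6.38% of the remaining reads, so that these 4 were within 1.52 percentage points of each other. A step down led to TRINITY_DN3415_c20_g2 with 3.94%, TRINITY_DN3383_c5_g3 with 3.84% and TRINITY_DN3365_c1_g3 with 3.49%. TRINITY_DN3366_c1_g2, TRINITY_DN3406_c24_g3 and TRINITY_DN3415_c20_g1 closed the 10 highest, at 3.20%, 3.14% and 2.93%. The 10 highest genes outside the highest component held 48.0% of the remaining reads, against 59.4% of all reads for the 10 highest of the whole library. By summed coverage TRINITY_DN3414_c60_g1 was still the highest gene, with 5.43%, but 6 of the 10 highest genes by reads were also among the 10 highest by summed coverage.

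The 10 highest components differed in how reads were divided over their genes. TRINITY_DN3365_c1 and TRINITY_DN3366_c1 were each nearly a single gene: TRINITY_DN3365_c1_g3 held 96.8% of the reads of its component and TRINITY_DN3366_c1_g2 held 99.97%. TRINITY_DN3373_c0 was split almost evenly, with 51.1% on TRINITY_DN3373_c0_g1 and 48.9% on TRINITY_DN3373_c0_g2, but these genes were unlike in form. TRINITY_DN3373_c0_g1 had 2 contigs of at most 171 bases at a coverage of 131927, and TRINITY_DN3373_c0_g2 had 16 contigs of up to 593 bases at a coverage of 9199. In TRINITY_DN3407_c7 the 1 contig of 155 bases that made up TRINITY_DN3407_c7_g4 held 49.7% of the reads. TRINITY_DN3383_c5 had 6 genes, of which TRINITY_DN3383_c5_g3 held 65.5% and TRINITY_DN3383_c5_g2 held 25.03%.

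The depth spread among contigs of a component was measured as the highest over the lowest mean coverage among its contigs with at least 10 reads. A contig with 10 reads has an exact Poisson 95% interval of 4.795 to 18.39 reads, so small folds at the lowest counts lie within counting error. In the 231 components with at least 2 such contigs, which together held 2043 of them, the median fold was 14.3, with quartiles of 2.36 and 92.5. The fold was under 2 in 53 components, at least 10 in 125, at least 100 in 57 and at least 1000 in 24. Of these 24, 5 were among the 10 components with most reads.

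The highest component had the narrowest spread of the 10 with most reads. All 17 contigs of TRINITY_DN3414_c60 were deeply covered: the lowest was TRINITY_DN3414_c60_g2_i2 (180 bases) at a coverage of 6106 and the highest TRINITY_DN3414_c60_g2_i3 (3171 bases) at 103193, a fold of 16.9 with a median coverage of 40618. Its coefficient of variation, the standard deviation over the mean of contig coverage, was 69.9%, and it lay at 95.2% or above in the other 9. In TRINITY_DN3406_c24 the 25 contigs spanned a fold of 4877, between TRINITY_DN3406_c24_g1_i3 (198 bases, 83 reads) at a coverage of 38.1 and TRINITY_DN3406_c24_g3_i2 (338 bases) at 185757. The 3 shallowest of these contigs were at a coverage of 38.1, 141 and 449, and the fourth from the bottom at 6085. The 37 contigs of TRINITY_DN3409_c36, the most in any of these 10, spanned a fold of 44.1, from TRINITY_DN3409_c36_g3_i10 (229 bases) at 1338 to TRINITY_DN3409_c36_g1_i4 (548 bases) at 58971.

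The 4 widest spreads lay in components whose deepest contig was short, but so did some narrower ones. TRINITY_DN3365_c1 had a fold of 92329: TRINITY_DN3365_c1_g3_i1 (196 bases, 933374 reads) was at a coverage of 477793, and the lowest of 6 contigs with at least 10 reads was at 5.17. TRINITY_DN3370_c0 had a fold of 63407, TRINITY_DN3366_c1 of 46997 and TRINITY_DN3373_c0 of 36624. The deepest contigs of these 4 components had 165 to 225 bases. Deepest contigs of such length also occurred with narrower spreads, at 200 bases in TRINITY_DN3415_c21 (fold of 39.5) and 202 bases in TRINITY_DN3383_c5 (fold of 416). The lowest contigs behind the 4 folds had 13 to 21 reads, close to the minimum of 10, at a coverage of 2.66 to 7.15, so the folds depend on where that minimum lies. Among the 10 highest components, the contig with the highest coverage was also the longest in 1 (TRINITY_DN3414_c60) and was shorter than 400 bases in 7.

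**Figure D2:**
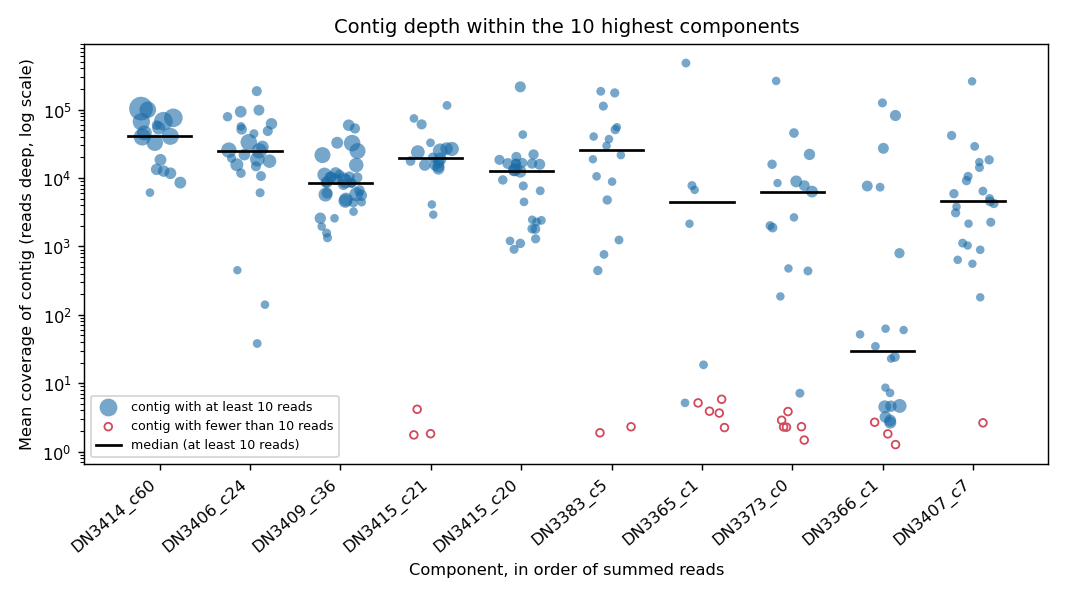
Mean coverage (log scale) of each contig in the 10 components with most reads, in order of summed reads. Filled points are contigs with at least 10 reads, with a larger area for a longer contig, open points are contigs with fewer than 10 reads, and bars are medians over the filled points. TRINITY_DN3414_c60 spans 6106 to 103193, while TRINITY_DN3366_c1 has a median of 29.5 below a highest contig at 124989.

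The fold rose with the number of contigs compared. In the 49 components with 2 contigs of at least 10 reads the median fold was 1.36, in the 58 with 3 to 5 it was 3.38, in the 45 with 6 to 10 it was 22.5, and in the 79 with 11 or more it was 112. A range over more contigs can only be equal or wider, so components of different size are not directly comparable in this measure. Taken over genes in place of components, 332 genes had at least 2 contigs with at least 10 reads, and their median fold was 7.29. The fold was under 2 in 78 of these genes and at least 100 in 47. The genes of a component also differed among themselves: in 144 components with at least 2 genes of at least 10 reads, the median fold between the highest and the lowest gene coverage was 5.92. Length did not order the contigs in one way. The contig with the highest coverage was the longest of its component in 66 of the 231 components and the shortest in 50, and the contig with the lowest coverage was the shortest in 66 and the longest in 43.

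**Figure D3:**
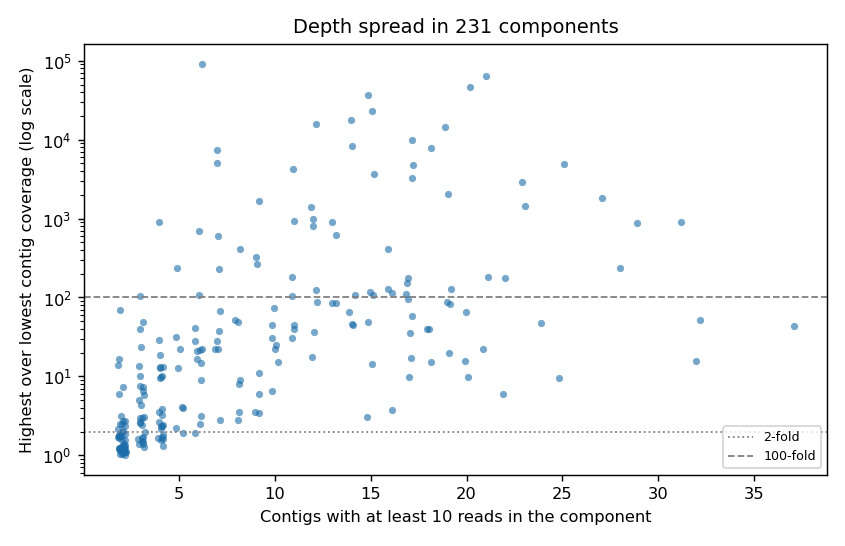
Highest over lowest contig coverage (log scale) in each of the 231 components, against the number of its contigs with at least 10 reads. Components with 2 contigs lie mostly under the 2-fold line (median 1.36), and those with 11 or more contigs have a median of 112.

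The other fractions, measured the same way, had a median fold of 1.66 over 1282 components in the RNA above 500 bp and 2.49 over 222 components in the RNA of about 300 bp, below the 14.3 of the RNA of 50 to 150 bp. The order changed with the number of contigs compared. With 2 contigs the medians were 1.36 in the RNA of 50 to 150 bp, 1.39 in that above 500 bp and 1.47 in that of about 300 bp. In the same order of fractions they were 3.38, 2.24 and 4.40 with 3 to 5 contigs, 22.5, 5.13 and 73.0 with 6 to 10, and 112, 28.2 and 1503 with 11 or more. The RNA of about 300 bp had the highest median in each of these 4 classes, over 115, 45, 34 and 28 components. Its quartile ranges overlapped those of the RNA of 50 to 150 bp in each class, as with 3 to 5 contigs (2.12 to 15.6 against 1.94 to 12.1). The higher median of the RNA of 50 to 150 bp than of about 300 bp, over all components, was thus found in none of the 4 classes. Against the RNA above 500 bp, the RNA of 50 to 150 bp had the lower median with 2 contigs and the higher one in each larger class. The fractions are 1 library each, with different numbers of reads, and the difference has no replicate check.

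Isoform sets, that is, genes with at least 2 contigs, carried most reads of the library. They numbered 570 of the 6304 genes (9.04%), included 2870 contigs (33.4%) and held 90.4% of the reads. Without the highest component, 568 sets held 86.2% of the remaining reads. Of the 5734 genes with a single contig, 4565 had fewer than 10 reads, and all single-contig genes together held 9.62% of the reads. Genes with 11 to 20 contigs were 57 in number and held 45.5% of the reads, those with 3 to 5 contigs were 148 and held 19.2%, and those with 6 to 10 contigs were 76 and held 17.3%. The 16 genes with more than 20 contigs held 1.86%. The highest component bears on these shares, since TRINITY_DN3414_c60_g2 alone gave 12.5% of the reads to the class of 3 to 5 contigs and TRINITY_DN3414_c60_g1 gave 17.6% to that of 11 to 20. Without that component, genes with 11 to 20 contigs held 39.9% of the remaining reads, those with 6 to 10 held 24.7% and those with 3 to 5 held 9.58%, so that the classes of 6 to 10 and 3 to 5 changed places.

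A large set did not mean many reads. The gene with most contigs, TRINITY_DN3367_c3_g1, had 33 contigs of 151 to 494 bases and 325 reads in all, at a coverage of 3.13 over its summed length. TRINITY_DN3331_c1_g1 had 29 contigs and 214 reads, TRINITY_DN3384_c1_g1 had 29 contigs and 674 reads, and TRINITY_DN3387_c1_g1 had 29 contigs and 651 reads. The fifth, TRINITY_DN3403_c1_g2, had 28 contigs and 40028 reads, each contig with at least 10 reads. In TRINITY_DN3331_c1_g1, by contrast, 4 of the 29 contigs had at least 10 reads.

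Within a set, reads were rarely confined to 1 contig. Among the 233 sets with at least 10 RPM (reads per 1000000 placed reads), the contig with most reads held a median of 52.0% of the reads of its gene, with quartiles of 34.4% and 74.2%. It held at least 90% in 32 sets and less than 25% in 32 sets. The lowest share was 11.04%, in TRINITY_DN3415_c20_g1, where 13 contigs of 220 to 661 bases shared 783396 reads. In TRINITY_DN3415_c20_g2 of the same component, 1 of 6 contigs held 95.4%. The contig with most reads was the longest of its set in 126 of the 233 sets and the shortest in 28. Reads on a contig grow with its length, so these 2 counts do not describe depth. The longest contig of a set was a median of 1.68 times as long as the shortest, and in 29 sets the ratio was under 1.1. Contigs with fewer than 10 reads occurred in 67 of the 233 sets and numbered 215 of 1769 contigs. The sources do not say how a read that fits several contigs of a set was assigned, and shares within a set depend on that rule.

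Single contigs of high abundance were short, as were the 5734 single-contig genes as a whole, with a median length of 184 bases. The 14 single-contig genes with at least 1000 RPM had lengths of 153 to 370 bases, with a median of 175, and held 6.54% of the reads. Their coverage ran from 22725 to 477793. TRINITY_DN3365_c1_g3 (196 bases) and TRINITY_DN3407_c7_g4 (155 bases, 401154 reads) were the highest, and TRINITY_DN3409_c36_g4 was the longest, with 370 bases and 194267 reads. In 8 of the 14 the component held at least 1 other gene.

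Genes of 10 to 1000 RPM formed a middle range between the dominant genes and the many genes with few reads. They numbered 293, or 4.65% of the genes, and held 2498781 reads, 6.54% of the library and 9.35% of the reads outside the highest component. Above them, 81 genes held 93.3% of the reads, and below them 5930 genes held 0.179%. The highest genes inside the range were TRINITY_DN2549_c0_g1 at 951 RPM and TRINITY_DN4017_c9_g1 at 946 RPM, and the nearest above it was TRINITY_DN3404_c2_g3 at 1014 RPM. The lowest inside was TRINITY_DN2867_c0_g1 at 10.2 RPM, and the nearest below was TRINITY_DN3405_c2_g2 at 9.97 RPM. No gap marked either end.

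Genes were found over the whole range, and most of its reads lay in the upper part. It had 35 genes at 10 to 20 RPM, 52 at 20 to 50, 47 at 50 to 100, 46 at 100 to 200, 71 at 200 to 500 and 42 at 500 to 1000 RPM. The last of these classes held 2.92% and the one before it 2.40% of all reads, while the first held 0.0484%. The 293 genes came from 204 components, and 91 were the only gene of their component. Genes alone in their component were a larger part of the whole library, where 242 of the 5814 components held at least 2 genes. In 53 genes, with 28.1% of the reads of the range, the component also held a gene above 1000 RPM. These 53 had a mean of 2.00 contigs per gene, against 5.19 for the other 240.

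Single-contig genes and isoform sets of the middle range differed in form. The 127 single-contig genes held 44.9% of the reads of the range and had a median length of 165 bases, with 113 of them at most 200 bases long. The 166 isoform sets had a median longest contig of 303.5 bases, and it was at most 200 bases long in 36 and above 500 bases in 42. Median abundance was close, at 122 RPM for the single-contig genes and 126 RPM for the sets, while median coverage over the summed contig length was 2511 for the single-contig genes and 336 for the sets, whose reads were spread over more bases. Over the 162 genes of the range with at least 2 contigs of at least 10 reads, the median depth fold was 13.9. It was under 2 in 18 genes and at least 100 in 20, with a highest value of 904.

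**Figure D4:**
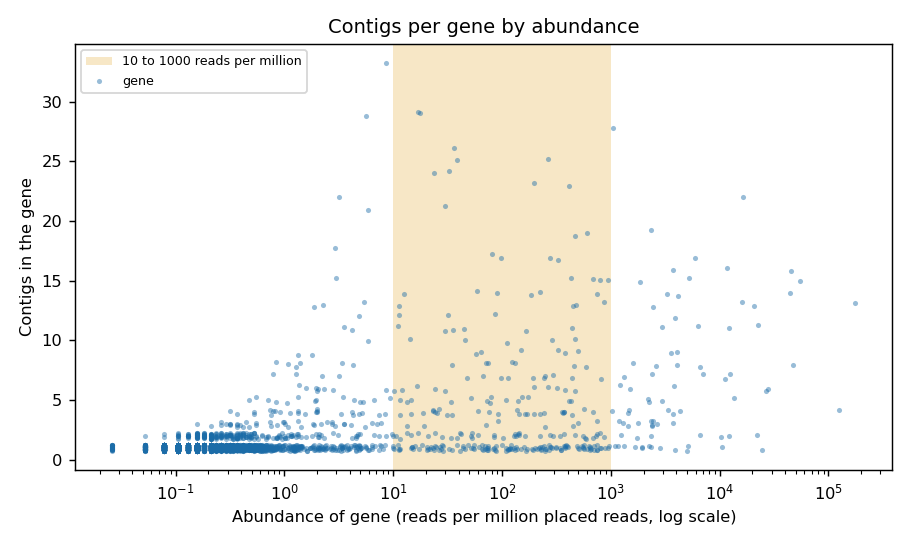
Contigs per gene against the gene's abundance in RPM (log scale) for every gene with at least 1 read, with a small vertical jitter. The shaded range of 10 to 1000 RPM holds 293 genes with 1 to 29 contigs, and the gene with most contigs (33) lies just below it at 8.50 RPM.

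The range held several of the largest sets. Its 44 genes with at least 10 contigs had 703 contigs, 52.0% of the contigs of the range, and 16.3% of its reads. The 10 largest had 21 to 29 contigs and fell into groups by depth. In 7 of them coverage over the summed length was low, between 6.18 in TRINITY_DN3387_c1_g1 and 21.9 in TRINITY_DN3312_c1_g1, and the contig with most reads held 11.3% to 17.7% of the reads. TRINITY_DN3329_c2_g2 and TRINITY_DN3340_c3_g1 were of another kind, with no contig above 214 and 224 bases. Their highest contigs were at a coverage of 4356 and 4906 and held 70.1% and 51.4% of the reads, and their depth folds were 706 and 899. TRINITY_DN3363_c1_g1 lay between them, with 23 contigs of up to 673 bases, a coverage of 121 and a fold of 65.9.

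Of the 5 genes of the range with most reads, 3 were single short contigs. TRINITY_DN2549_c0_g1 (183 bases, 36361 reads), TRINITY_DN4017_c9_g1 (213 bases, 36155 reads) and TRINITY_DN2721_c1_g1 (161 bases, 33417 reads) each had 1 contig, at a coverage of 20257, 12832 and 20736. TRINITY_DN3385_c2_g2, with 35664 reads on 15 contigs of at most 235 bases, and TRINITY_DN3405_c3_g4, with 33065 reads on 13 contigs of 382 to 723 bases, completed the first 5. TRINITY_DN3405_c3_g4 had a depth fold of 4.99 and no contig below a coverage of 185.

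Long contigs were few in the range, but it held the longest of the library. The longest contig was above 1000 bases in 6 of the 293 genes, and those named here were chosen after their values were seen. How many genes outside the range had such a contig was not counted. The longest contig had 8043 bases in the range, 1771 at 1 to 10 RPM, 4324 at 1000 to 10000 RPM and 3171 at 10000 RPM or more. TRINITY_DN3266_c0_g1 had contigs of 8043 and 2568 bases at a coverage of 203 and 177, a fold of 1.14, and held 21176 reads. TRINITY_DN3266_c0_g2 of the same component was 1 contig of 6276 bases at a coverage of 246. Their reads came to 554 and 406 RPM, so that abundance by reads placed them in the upper part of the range while coverage lay below the median of the range, 686. TRINITY_DN3413_c2_g1 had 14 contigs of up to 2041 bases with a fold of 44.9.

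The middle range held more genes in the RNA of 50 to 150 bp than in the other fractions. It had 293 genes there, 169 in the RNA above 500 bp and 148 in the RNA of about 300 bp. These were 4.65% of 6304 genes, 0.645% of 26209 and 1.63% of 9081, so the percentages also depend on how many genes each library listed. The middle range held 6.54%, 1.99% and 3.25% of the reads in the same order of fractions. Its genes had a mean of 4.61 contigs in the RNA of 50 to 150 bp, 3.70 in that above 500 bp and 2.93 in that of about 300 bp, and a median longest contig of 197, 326 and 260 bases. Contigs were not matched between fractions, and these are single libraries with no test. The libraries also differed in placed reads, with 38218991, 99600344 and 60134651 in the same order of fractions.

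Alignment of reads along contigs gave 2 measures that the grouping by name did not use. The mean number of aligned bases per read was examined over the 1393 contigs with at least 100 reads, which held 99.8% of the reads. It was narrowly distributed, with a median of 99.7 bases and 90% of the contigs between 94.2 and 101.1 bases. Contigs at 99 bases or more held 89.8% of all reads and had a median length of 251 bases, whereas contigs from 95 to 99 bases held 8.51% and had a median length of 180 bases. The sources do not state the read length or how an aligned base was counted.

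A small set of contigs stood well below. The mean was under 80 bases in 26 contigs, a limit chosen after the values were seen. They belonged to 14 components, had lengths of 153 to 361 bases and held 61707 reads, 0.161% of the library. TRINITY_DN4017_c9_g1_i1 alone had 36155 of these reads, at 75.6 aligned bases per read, and it is also the gene with the second most reads of the middle range. In all, 19 of the 26 contigs belonged to genes of the middle range. How many of all contigs with at least 100 reads belonged to that range was not counted. The 19 therefore cannot show whether short alignments were more frequent there than elsewhere. Of these 19, 16 contigs in 5 components fell into a narrow band: the component means were 65.9 bases in TRINITY_DN3360_c4 (4 contigs), 66.2 in TRINITY_DN3333_c0, 67.3 in TRINITY_DN3344_c2, 67.3 in TRINITY_DN3358_c5 and 67.5 in TRINITY_DN3328_c3 (3 contigs each). TRINITY_DN3344_c2_g1_i2 had the most reads of these, 10771, on 176 bases at 97.2% covered.

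**Figure D5:**
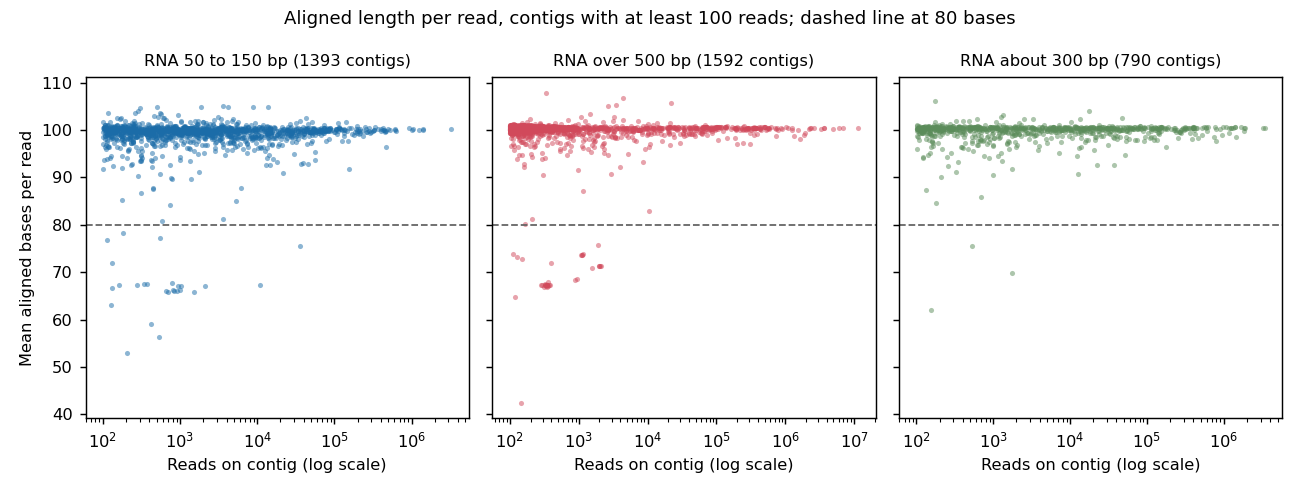
Mean aligned bases per read against reads (log scale) for each contig with at least 100 reads, in the RNA of 50 to 150 bp and the other fractions, with a dashed line at 80 bases. In the RNA of 50 to 150 bp, 26 of 1393 contigs lie below the line, against 35 of 1592 in the RNA above 500 bp and 3 of 790 in the RNA of about 300 bp.

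Low values of this kind also occurred in the other fractions. Among contigs with at least 100 reads, those under 80 aligned bases per read were 1.87% in the RNA of 50 to 150 bp, 2.20% in the RNA above 500 bp and 0.380% in the RNA of about 300 bp. They held 0.161%, 0.0247% and 0.00404% of the reads in the same order of fractions, and the first of these shares rests mostly on TRINITY_DN4017_c9_g1_i1.

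Partial coverage was the second measure. Of the 1393 contigs, 855 (61.4%) were covered over every base and held 77.7% of the reads. A limit of 80% of the contig length was set after the values were seen. Contigs covered below it numbered 24 (1.72% of those examined) and held 0.904% of the reads. In the RNA above 500 bp they were 6 of 1592 contigs (0.377%) with 0.0055% of the reads. In the RNA of about 300 bp they were 8 of 790 contigs (1.01%) with 0.0504%. Several of the 24 were deep where they were covered. TRINITY_DN3397_c12_g1_i4 (172 bases) had 124539 reads on 76.7% of its length, TRINITY_DN3397_c12_g1_i5 (220 bases) had 52178 reads on 78.6%, TRINITY_DN3383_c5_g1_i1 (167 bases) had 50564 reads on 75.4% and TRINITY_DN3394_c7_g1_i2 (188 bases) had 49386 reads on 78.2%. The lowest was TRINITY_DN3334_c5_g3_i5 (169 bases), with 203 reads on 40.8% of its length at 52.9 aligned bases per read, the lowest value of both measures in the library among contigs with at least 100 reads. These contigs were named after their values were seen.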

How the data were processed

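The RNA of 50 to 150 bp was cut from a gel and sequenced as 1 library. Bowtie2 and bcl2fastq are named, with no version, in the submitters' processing notes; the sources do not state the assembler's settings, the read filters or how reads that fit several contigs were assigned. Per the file headers, the authors deposited for each contig its length, the count of reads, the summed aligned bases, the mean coverage (aligned bases over length), the RPKM and the percent of bases covered. The deposited RPKM were recomputed from the counts and differed by at most 0.00212% among contigs with at least 100 reads.

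From these values, counts were summed by the component and gene parts of the contig names. RPM are reads per 1000000 of the 38218991 placed reads. A contig with 0 reads (16 contigs) allows up to 0.0785 RPM at 3 counts, for counting error only. Unplaced reads were not analysed here.

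Named were the 10 components and 10 genes with most reads, the 10 such genes outside the highest component, the deepest and shallowest contig of the 3 highest components, the 5 genes with most contigs and, at 10 to 1000 RPM, the 10 genes with most contigs and the 5 with most reads. Other names were chosen after their values were seen. The members and lists were chosen with earlier results of these data known. Alternatives were read minimums, contig length, coverage in place of reads, leaving out the highest component, and other ranges of RPM. The computation was tested on simulated data. It used pandas 2.3.3 and NumPy 2.4.6 under Python 3.11.15, SciPy 1.17.1 for intervals, and Matplotlib 3.10.9 for figures.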

Additional observations from a re-analysis of the deposited data

How the results depend on the processing

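With 1 library there is no replicate to leave out. No paired analysis was possible because each fraction has 1 library. Of 42 alternative values of 10 results, 6 stayed within 1.5 times of a count or within the counting error of a share. The median depth fold and the mean contigs per gene were taken as unchanged only if equal as printed below, and no alternative was. Sums by the number before the _c part were chosen after seeing the data.

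With mean coverage in place of reads, the units were ranked anew. The highest component was then TRINITY_DN3406_c24 with 9.63%, and TRINITY_DN3414_c60, the highest by reads (30.1%), held 7.51%. The 10 highest components held 55.8% (75.04% of reads) and the highest gene 5.43% (17.6%). The 10 highest genes held 36.1% (59.4%) and genes with more than 1 contig 80.1% (90.4%). Without TRINITY_DN3414_c60, the 10 highest components held 66.7% of the reads, the highest gene 7.91%, the 10 highest genes 48.0% and genes with more than 1 contig 86.2%. With contigs of at least 10 reads these shares were 30.12% and 75.09% for components, 17.65% and 59.46% for genes, and 90.40% for genes with more than 1 contig, which held 89.9% at a minimum of 100 reads. With contigs of at least 200 bases they were 38.3%, 87.9%, 22.5%, 73.7% and 95.1%. Summed by the number before the _c part, the highest unit held 30.6% and the 10 highest 78.7%. The number of genes with more than 1 contig, 570, was 332 with at least 10 reads per contig, 213 with at least 100 reads and 285 with contigs of at least 200 bases.

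The median depth fold of 14.3 was 18.5 with at least 100 reads, 14.8 per covered base, 7.29 over genes and 5.75 with contigs of at least 200 bases. The share of reads at 10 to 1000 RPM, 6.54%, was 3.65% at 5 to 500 RPM, 9.51% at 20 to 2000 RPM and 7.18% of the reads without the highest component with RPM taken over them. The number of genes in the range was 279 to 294 in its 5 alternatives. Mean contigs per gene there, 4.61, became 3.98 with at least 10 reads per contig, 2.87 with at least 100, 4.71 at 5 to 500 RPM and 4.53 at 20 to 2000 RPM. Depth limits the contigs under 10 reads, which enter no depth fold.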
